A study of Mus musculus with 6 samples.

Results

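The genes described here encode the machinery that docks, primes and fuses secretory granules in regulated exocytosis: 47 mouse genes, taken as a named list of synaptotagmins, synaptotagmin-like proteins, Rab3 and Rab27 GTPases, SNAREs, Munc13 and RIM proteins and their partners, out of 21883 protein-coding genes on the chromosomes of the RefSeq table. Each gene was given the CUT&RUN peaks that lay in its body or within 10 kb of either end. CUT&RUN cuts out and sequences the DNA that an antibody holds on chromatin. All libraries came from MIN6, an established mouse insulinoma line used as a model of the pancreatic beta cell, with no genetic change or drug treatment named in the labels, and each used 500000 cells permeabilised in 0.01% digitonin. MafA, at its endogenous level, was profiled in 2 libraries and trimethylated lysine 4 of histone H3 (H3K4me3), the positive control, in 2 libraries. The 2 libraries of the negative control IgG were not analysed here. Nothing in the labels says that the replicates came from separate cultures, so the spread between them may be technical.

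Insulin is stored in dense-core granules that fuse with the plasma membrane when calcium enters the beta cell. Rab3 and Rab27 GTPases and their effectors (granuphilin, RIM proteins) bring granules to the membrane, and Munc13 and CAPS proteins prime them. The SNAREs syntaxin, SNAP-25 and VAMP drive fusion, with calcium-binding synaptotagmins and Doc2b as calcium sensors. MafA is a basic leucine zipper transcription factor of mature beta cells that binds the insulin gene, and H3K4me3 is a histone mark found at the start of active or poised genes.

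The deposited lists held 33013 and 42747 MafA peaks and 16020 and 16904 H3K4me3 peaks in replicates 1 and 2. A region is a place where peaks of both replicates of a target share at least 1 bp, and its strength is the fold enrichment of the strongest peak in each replicate: the fragment pileup at the summit over the peak caller's modelled local background. There were 25894 MafA regions in the genome, and the percentile given with a region is its rank among them by mean fold enrichment. The median peak held 25 and 46 fragments at its summit in the MafA libraries and 759 and 263 in the H3K4me3 libraries, so MafA values rest on fewer fragments, and those of replicate 1 on fewest. Of the beta cell markers checked, 8 of 10 carried H3K4me3 within 1 kb of a gene end (Ins1 and G6pc2 did not). Markers of other tissues rarely did: 0 of 5 for acinar and duct cells, 0 of 2 for liver, 0 of 2 for blood, 1 of 2 for neurons (Slc17a7) and 2 of 7 for other islet cells (Gcg and Irx2).

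MafA regions were present at 32 of the 47 exocytosis genes (68.1%), against 44.0% of all protein-coding genes. They numbered 128, and no region was shared by 2 of the genes. In 101 the summit lay inside the gene, and gene bodies took up most of the window length. The exocytosis genes are long, with a median of 67.87 kb against 17.17 kb for all genes, and a long gene offers more room for a region. Among genes over 100 kb, 14 of 17 exocytosis genes (82.4%) held a region against a background of 78.5%, and among genes of 20 to 100 kb 12 of 20 (60.0%) did, against 53.1%. Both shares lay near their background. Among genes under 20 kb, 6 of 10 (Syt3, Syt4, Syt5, Rab3a, Vamp2 and Vamp3) held one, against 31.1%. At Vamp2 and Vamp3, however, the regions lay nearer to another gene. Syt4, Syt5 and Rab3a had none when equal numbers of the strongest peaks were taken from each library. Per length, the windows of the exocytosis genes held 17.96 MafA regions per Mb, and those of all genes 13.92. The median fold enrichment of their regions was 5.80 and 6.08 in replicates 1 and 2, close to the 5.52 and 5.95 of all MafA regions.

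H3K4me3 marked nearly all of these genes. Of the 34 genes whose start the promoter table lists, 29 (85.3%) had an H3K4me3 region within 1 kb of it, against 57.6% of all genes with a listed start. The table lists no start for Syt4, Syt5, Syt7, Syt12, Syt13, Syt17, Sytl2, Rab27b, Vamp2, Vamp3, Snap25, Rims2 and Doc2b. Counted at either end of the gene, 39 of 47 (83.0%) were marked, against 55.8% of all genes. With a listed start inside the gene allowed as well, 41 of 47 (87.2%) were, against 58.6%. Anywhere in the gene or within 10 kb, 42 of 47 (89.4%) had a region, against 65.2%. A long gene offers more room here too. Per length, the windows of the exocytosis genes held 10.38 H3K4me3 regions per Mb, and those of all genes 11.21. Some of these regions can belong to a neighbouring gene's start.

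Both targets together sorted the genes into 4 sets. MafA regions and H3K4me3 at a start or end were both found at 28 genes, and 13 genes carried H3K4me3 and no MafA region. MafA regions without H3K4me3 at a start or end were found at Syt16, Sytl3, Rab27b and Unc13c, and neither was found at Sytl1 and Sytl2. No share of all genes is given for these 4 sets. With H3K4me3 counted at the ends alone, the 21883 genes split into 12209 marked and 9674 unmarked. Of these, 7473 and 2163 held a MafA region. Among genes marked at an end, 26 of 39 exocytosis genes (66.7%) held a MafA region, near the background of 61.2%. Among genes unmarked at both ends, 6 of 8 (75.0%) did (Syt16, Sytl3, Rab27b, Stx3, Unc13c and Cadps2), against 22.4%; of these 6, Stx3 and Cadps2 had H3K4me3 at a listed start inside the gene. Length moved with this share too: of unmarked genes over 100 kb, 4 of 5 exocytosis genes (80.0%) held a region, against 61.2% of all such genes, and of those of 100 kb or less 2 of 3 (66.7%), against 19.0%.

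**Figure D1:**
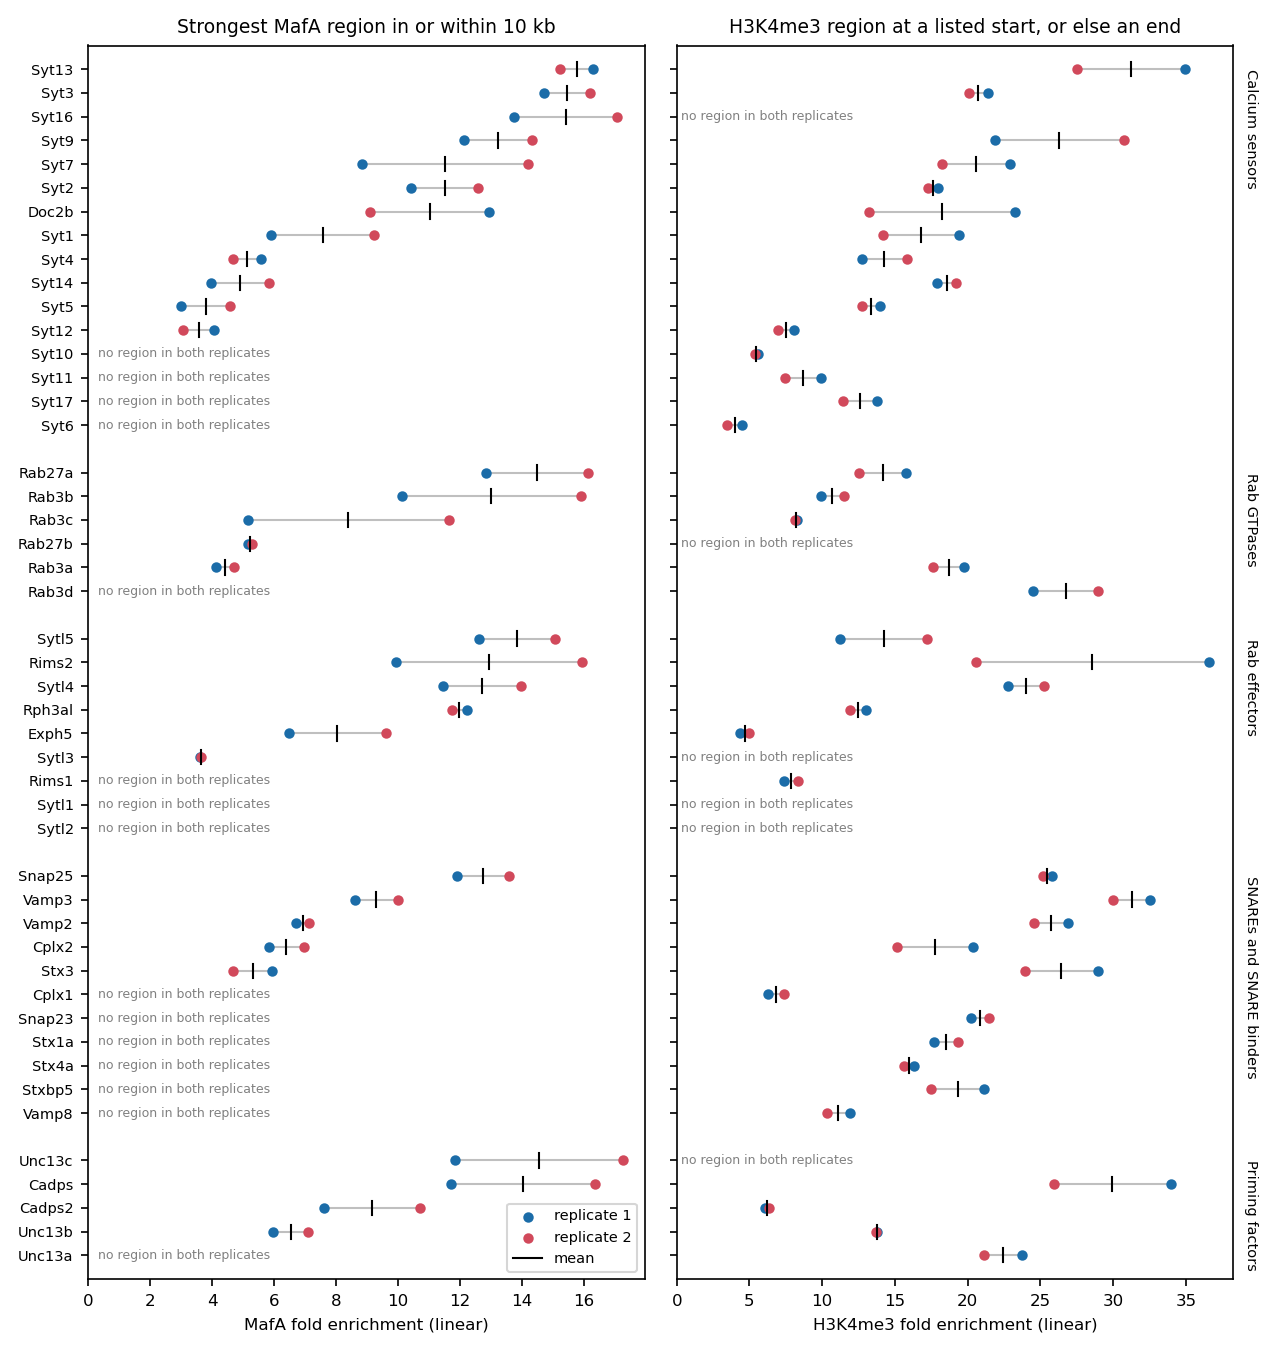
Fold enrichment (linear) of the strongest MafA region in or within 10 kb of each of the 47 genes (left) and of the H3K4me3 region at its listed start, or else at an end (right), by replicate (points) with their mean (black bar), ordered by role and then by MafA mean. By fold enrichment, every role group has high MafA values, the highest mean running from 12.74 (SNAREs and SNARE binders) to 15.78 (calcium sensors). Ranked by fragments, no Rab effector reaches the 90th percentile. No MafA region in both replicates was found at 15 genes, and no such H3K4me3 region at 6.

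At listed starts, MafA regions were about as frequent as over all genes. Of the 34 genes with a listed start, 8 (23.5%) had a MafA region within 1 kb of it, near the background of 19.9%. The 13 genes without a listed start are not in this count. Among them, Syt4, Syt5, Syt7, Syt13 and Snap25 each had a MafA region over H3K4me3 that spanned an end of the gene. The 300-base promoter windows (250 bases before to 50 after the start, RefSeq, build GRCm38.p6) numbered 40 for the 34 genes, and those under a MafA region belonged to Syt1, Syt2, Syt3, Syt14, Rab3a, Rab27a and Rph3al. The 250 bases before the start are shown for 4 of these and for 2 core genes without a MafA region, chosen after their values were seen to set covered and uncovered promoters side by side. Capitals mark bases under the MafA peaks of both replicates, read 5′ to 3′ on the gene's strand. The stretch of Syt2 (chr1:134646362-134646611, plus strand) and that of Syt3 (chr7:44383876-44384125, plus strand) were covered over all 250 bases. Rab27a (chr9:73044560-73044809, plus strand) was covered over the 136 bases farthest from its start, and Rph3al (chr11:75925892-75926141, minus strand) over the 45 farthest. The listed start of Rph3al lies inside the gene (chr11:75830992-75967614), which has another H3K4me3 region at its end (chr11:75965808-75967322). Stx1a (chr5:135023232-135023481, plus strand) and Unc13a (chr8:71671758-71672007, minus strand) had 0 bases covered.
Syt2: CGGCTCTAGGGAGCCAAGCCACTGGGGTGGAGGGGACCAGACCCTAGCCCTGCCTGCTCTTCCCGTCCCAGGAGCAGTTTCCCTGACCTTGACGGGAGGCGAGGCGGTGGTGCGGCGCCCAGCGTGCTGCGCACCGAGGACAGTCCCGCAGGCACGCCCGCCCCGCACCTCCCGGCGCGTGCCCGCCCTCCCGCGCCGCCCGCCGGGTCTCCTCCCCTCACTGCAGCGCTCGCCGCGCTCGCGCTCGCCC
Syt3: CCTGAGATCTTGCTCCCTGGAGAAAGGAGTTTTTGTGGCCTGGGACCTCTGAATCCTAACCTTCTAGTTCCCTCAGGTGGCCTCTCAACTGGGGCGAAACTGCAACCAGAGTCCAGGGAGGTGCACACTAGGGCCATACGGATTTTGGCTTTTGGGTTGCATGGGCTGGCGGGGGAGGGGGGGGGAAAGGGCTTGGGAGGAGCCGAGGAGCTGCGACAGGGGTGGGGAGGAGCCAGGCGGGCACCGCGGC
Rab27a: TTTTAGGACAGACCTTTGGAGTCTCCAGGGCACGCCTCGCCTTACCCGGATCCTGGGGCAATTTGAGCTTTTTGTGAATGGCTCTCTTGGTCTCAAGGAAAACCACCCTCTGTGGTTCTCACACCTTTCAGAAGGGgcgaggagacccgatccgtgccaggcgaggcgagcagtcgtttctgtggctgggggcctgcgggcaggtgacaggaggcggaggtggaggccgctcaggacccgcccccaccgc
Rph3al: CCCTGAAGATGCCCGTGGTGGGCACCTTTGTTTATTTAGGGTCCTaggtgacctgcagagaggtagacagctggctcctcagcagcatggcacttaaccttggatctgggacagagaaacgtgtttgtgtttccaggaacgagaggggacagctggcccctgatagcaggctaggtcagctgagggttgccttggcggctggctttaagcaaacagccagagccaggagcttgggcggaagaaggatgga
Stx1a: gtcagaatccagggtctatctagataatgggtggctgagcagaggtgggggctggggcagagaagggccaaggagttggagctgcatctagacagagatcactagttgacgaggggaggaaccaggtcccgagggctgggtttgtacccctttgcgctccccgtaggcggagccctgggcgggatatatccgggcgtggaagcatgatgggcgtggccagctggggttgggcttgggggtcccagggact
Unc13a: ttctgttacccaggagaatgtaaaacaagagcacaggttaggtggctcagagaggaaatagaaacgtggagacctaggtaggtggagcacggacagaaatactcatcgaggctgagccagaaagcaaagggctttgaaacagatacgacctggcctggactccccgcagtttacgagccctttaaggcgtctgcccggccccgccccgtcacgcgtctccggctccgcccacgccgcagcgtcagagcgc

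None of the MafA summits at these 4 promoters lay on the bases shown. In Syt2 they lay 205 and 114 bases after the start in replicates 1 and 2, and in Syt3 271 and 310 bases after it. In Rab27a they lay upstream, at -348 and -375 bases from the start, and likewise in Rph3al at -328 and -326 bases. Fold enrichment at these regions was 9.12 and 9.36 in Syt2, 10.42 and 9.42 in Syt3, 3.14 and 3.40 in Rab27a and 5.50 and 5.31 in Rph3al. The promoters of Syt2 and Syt3 thus carried the stronger pair of the 4.

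Letters of the MAF recognition element were searched in the windows on both strands. The heptamer TGCTGAC was found in 1 of the 40 windows (2.5%), that of Sytl5, against 4.67% of all 32851 windows in the table and 6.43% of the 4420 windows under a MafA region. The listed start of Sytl5 (chrX:9885621) lies inside the gene (chrX:9747622-9998864), and its window was under neither MafA nor H3K4me3. The shorter TGCTGA, which the heptamer contains, was found in 6 windows (15%), against 19.5% of all windows and 19.9% of those under MafA. In 3 of the 6, the windows of Syt2, Rph3al and Unc13a, part of the window is printed above. The Syt2 match lay 42 bases after the start, under the MafA peaks of both replicates. The Rph3al match is at base 79 of the printed stretch, outside the capitals, and the Unc13a match lay 24 bases after the start, under no MafA region. A match describes the letters in these windows only. In base composition, the median window under H3K4me3 had 62% GC and 19 CG pairs (62.3% and 22 over all genes). The 9 windows without H3K4me3 had medians of 59.3% GC and 6 CG pairs, above those of such windows over all genes (47.7% and 3). Syt16 stood apart at 75% GC and 42 CG pairs. The 9 are not separate promoters: they include overlapping windows of Syt6, and Syt1, Syt6 and Rab27a each have another window under H3K4me3.

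Calcium sensors, the largest role group, held the most regions. Per length of window they were close to the Rab GTPases, with 28.32 and 28.08 regions per Mb. Of 16 genes 12 had a MafA region (all genes 44.0%), 56 regions in all, and 15 had H3K4me3 at an end (all genes 55.8%). This group took in every listed synaptotagmin, including Syt11, Syt13 and Syt16, described here as lacking calcium binding. Syt13, an atypical synaptotagmin that lacks calcium-binding residues, led the whole list. Its strongest region (chr2:92930243-92932002, build GRCm38, inside the gene at chr2:92915101-92956051) had a fold enrichment of 16.32 and 15.24 in replicates 1 and 2 (15.78 ± 0.77, SD, n = 2), at the 95.3 percentile, with 137 and 248 fragments at the summit. The gene held 9 MafA regions in 40.95 kb, of which only 1, at 2.58 and 2.51, lay over H3K4me3. Its H3K4me3 region was among the strongest and broadest of the group, with a fold enrichment of 34.92 and 27.53 and a width of 4233 bp.

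Syt3, a synaptotagmin of the plasma membrane, held 4 regions. The strongest (chr7:44378080-44378918) lay 3855 bp before the gene and was also within 10 kb of 1700008O03Rik, to which it lay nearer. It had a fold enrichment of 14.71 and 16.20 (15.46 ± 1.05, SD, n = 2), from 86 and 194 fragments. Syt16, which lacks the calcium-binding residues of classical synaptotagmins, held 7 regions and no H3K4me3 region. Its strongest (chr12:74086645-74087898) had 13.75 and 17.09 (15.42 ± 2.36, SD, n = 2), from 61 and 141 fragments. The leading 3 genes of this group did not differ by more than their spread between replicates.

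Syt7 and Syt9, calcium sensors of insulin granule release, held 7 regions each. At Syt7 the strongest region (chr19:10434639-10436513, inside the gene) had a fold enrichment of 8.83 and 14.21 (11.52 ± 3.80, SD, n = 2), from 76 and 208 fragments, and a second (chr19:10385102-10386058), 2744 bp outside the gene, had 9.81 and 12.33. Another, over the H3K4me3 region at the gene's end, held more fragments than either, with 242 and 441, yet a fold enrichment of 7.79 and 6.60, since the modelled background there was 30.18 and 49.00 against 7.72 and 10.00 at the strongest. At Syt9 the strongest (chr7:107390533-107391612, inside the gene) had 12.13 and 14.33 (13.23 ± 1.55, SD, n = 2), from 49 and 123 fragments. Both genes had H3K4me3, at 22.91 and 18.26 for Syt7 and 21.88 and 30.74 for Syt9. The other genes of this group with a region (Syt1, Syt2, Syt4, Syt5, Syt12, Syt14 and Doc2b) had mean strongest values from 3.57 (Syt12) to 11.51 (Syt2). Doc2b, a soluble calcium sensor of insulin secretion, had 12.94 and 9.12 in a region outside the gene. Syt1 and Syt2, the fast sensors of synaptic release, had 5.90 and 9.24, and 10.42 and 12.59, in regions inside the gene.

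**Figure D2:**
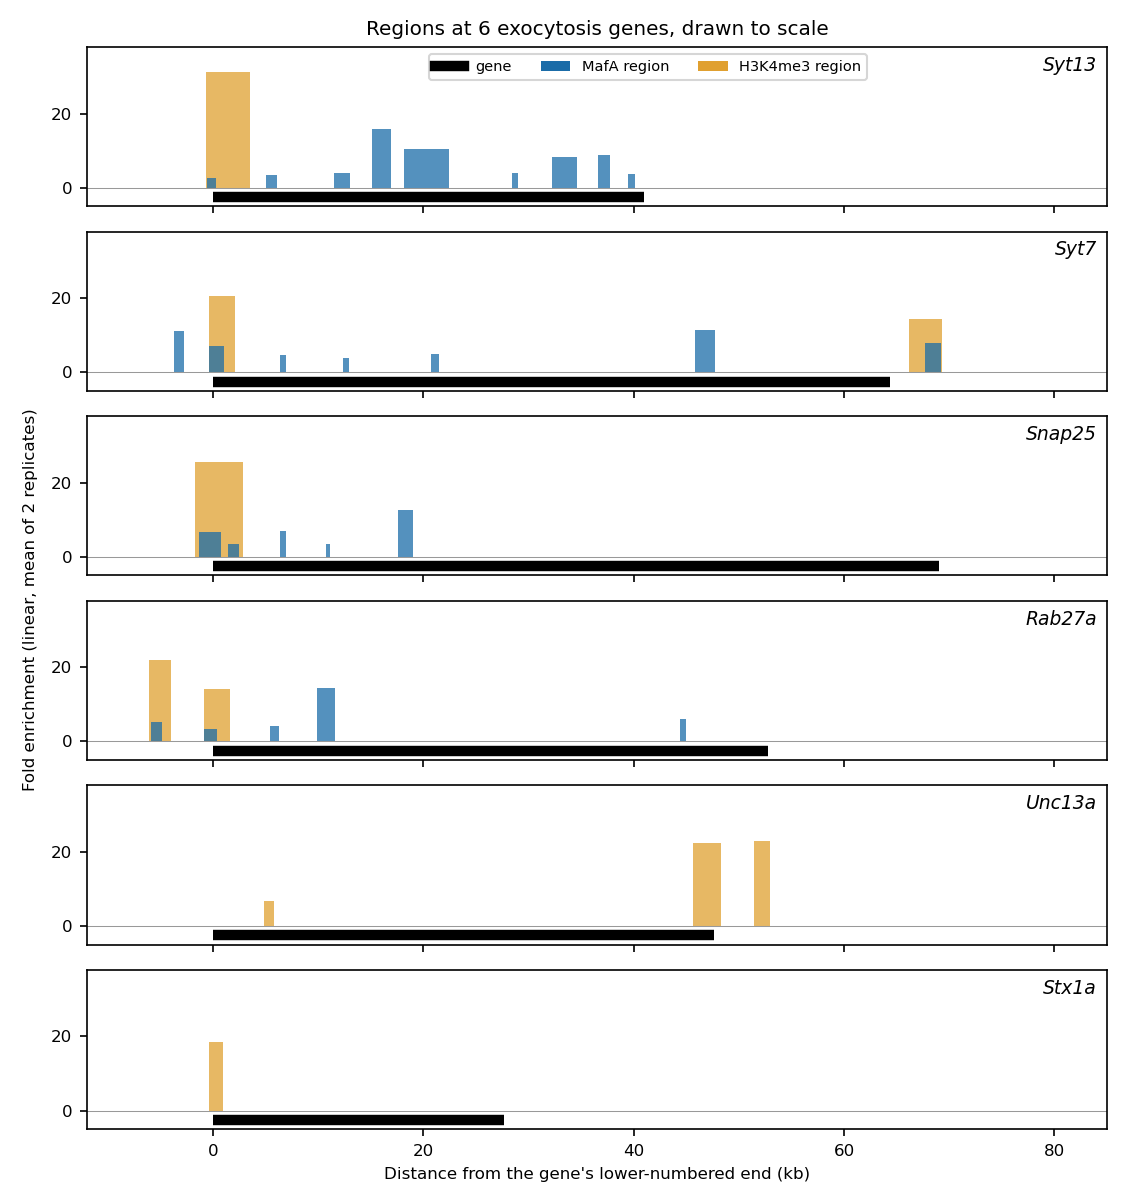
Regions found in both replicates at 6 genes, with bar width to scale as distance in kb from the gene's lower-numbered end and bar height as mean fold enrichment (linear). MafA regions in blue (darker where they overlap) and H3K4me3 regions in orange, with the gene as a black bar. At Syt13, Syt7, Snap25 and Rab27a the tallest MafA bar stands away from H3K4me3, while Unc13a and Stx1a show H3K4me3 alone.

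Of the Rab GTPases, 5 of 6 held a MafA region (all genes 44.0%), 18 in all. Rab27a, the GTPase on insulin granules that recruits granuphilin, held 5. The strongest (chr9:73054691-73056413, inside the gene at chr9:73044810-73097623) had a fold enrichment of 12.85 and 16.14 (14.49 ± 2.33, SD, n = 2), from 93 and 212 fragments, while the region at its promoter shown above had 3.14 and 3.40. Rab3b held 3 regions, the strongest (chr4:108911593-108912503) at 10.13 and 15.91 (13.02 ± 4.08, SD, n = 2) from 39 and 120 fragments. Rab3a, a Rab of synaptic vesicles and insulin granules, was a contrast: its 3 regions reached only 4.12 and 4.71 (4.41 ± 0.42, SD, n = 2), all lay over H3K4me3, and each was also within 10 kb of Ifi30, Mpv17l2 and Pde4c. H3K4me3 at the listed start of Rab3a was 19.75 and 17.63. Rab3c held 6 regions with the strongest at 5.16 and 11.65, and Rab27b 1 region at 5.15 and 5.29, without H3K4me3. Rab3d had H3K4me3 at 24.48 and 28.99 and no MafA region.

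Of the Rab effectors, 6 of 9 held a MafA region (all genes 44.0%), 17 in all. Sytl4, granuphilin, which docks insulin granules, held 2, the stronger (chrX:133968820-133970134) with a fold enrichment of 11.46 and 13.99 (12.73 ± 1.79, SD, n = 2) from 29 and 63 fragments. Sytl5 held 1 (chrX:9752299-9753919), at 12.61 and 15.08 (13.85 ± 1.75, SD, n = 2) from 32 and 68 fragments. The modelled background was 1.617 and 2.432 at both the Sytl4 and the Sytl5 region. Ranked by fragments among all MafA regions, they stood only at the 50.4 and 55.2 percentiles. Rims2, a RIM protein that acts in insulin granule docking, held 5, the strongest (chr15:39616276-39617432) at 9.95 and 15.95 (12.95 ± 4.24, SD, n = 2) from 30 and 88 fragments, and had H3K4me3 at 36.59 and 20.55. Its paralogue Rims1 differed: in 520.2 kb it held no MafA region, the nearest lay 449.4 kb away, and its H3K4me3 was 7.37 and 8.31. The strongest regions of Rph3al, Exph5 and Sytl3 had means of 11.99, 8.05 and 3.63.

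Of the SNAREs and their binders, 5 of 11 genes had a MafA region (all genes 44.0%), 14 in all. H3K4me3 at an end was found at 10 of these 11 genes (all genes 55.8%). These are the shortest genes of the list by median (31.47 kb), and per length of window they held 20.4 regions per Mb, against 28.32 for calcium sensors, 28.08 for Rab GTPases, 8.958 for Rab effectors and 11.95 for priming factors. Snap25, the target-membrane SNARE of insulin secretion, held 5 regions. The strongest (chr2:136731019-136732416, inside the gene at chr2:136713439-136782428) had a fold enrichment of 11.91 and 13.58 (12.74 ± 1.18, SD, n = 2), from 46 and 88 fragments, while a region over its H3K4me3 held more fragments, 113 and 218, at a fold enrichment of 6.93 and 6.42. Its H3K4me3 region was broad, at 4571 bp. Vamp2, the granule SNARE, had 2 regions within 10 kb, the stronger (chr11:69096742-69099160) at 6.72 and 7.12 (6.92 ± 0.28, SD, n = 2), but both lay nearer to Per1, a clock gene. Cplx2, a complexin that regulates SNARE zippering, held 3, the strongest (chr13:54308769-54309754) at 5.83 and 6.98 (6.40 ± 0.81, SD, n = 2). Vamp3 and Stx3 held 2 each, with the strongest at means of 9.31 and 5.31.

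Stx1a, the syntaxin of insulin granule fusion, had no MafA peak in either list in its body or within 10 kb, and the nearest region lay 27.32 kb away. Its H3K4me3 region (chr5:135023125-135024465), by contrast, was found at 17.69 and 19.31 (18.50 ± 1.15, SD, n = 2), from 501 and 208 fragments. The same held for Unc13a, the Munc13 priming protein: no MafA peak in either list, the nearest region 14.47 kb away, and H3K4me3 (chr8:71669723-71672412) at 23.73 and 21.12 (22.43 ± 1.84, SD, n = 2), from 3202 and 1143 fragments.

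The other priming factors had MafA regions in the gene or within 10 kb, 23 in all, in genes of 218.7 to 578.4 kb. Of all genes over 100 kb, 78.5% held one. Cadps, the CAPS protein that primes dense-core granules, held 10, the most of any of the 47 genes. Its strongest (chr14:12582976-12585211, inside the gene) had a fold enrichment of 11.71 and 16.36 (14.03 ± 3.29, SD, n = 2), from 60 and 174 fragments, and the 2 regions over its H3K4me3 had 4.35 and 3.07, and 4.14 and 3.72. Unc13c held 6 and no H3K4me3 region, with the strongest (chr9:73970200-73973279) at 11.85 and 17.26 (14.55 ± 3.83, SD, n = 2), from 30 and 78 fragments. That region stood at the 56.7 percentile by fragments, over a modelled background of 1.617 and 2.432. Cadps2 held 4, the strongest at a mean of 9.17. Unc13b had 3, the strongest at 6.54, but all had their summits outside the gene and lay nearer to another gene (Fam214b is within 10 kb of each). Paralogues thus differed in the same cells: Unc13a was marked by H3K4me3 without MafA and Unc13c by MafA without H3K4me3.

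**Figure D3:**
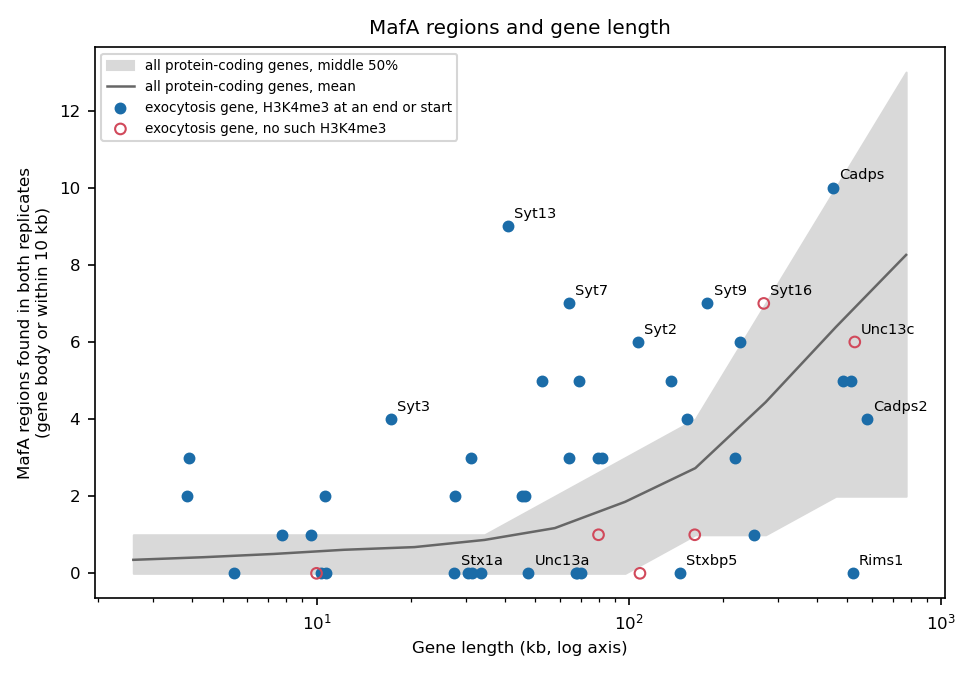
Number of MafA regions found in both replicates in or within 10 kb of each exocytosis gene against gene length (kb, log axis), with filled points for genes with H3K4me3 at an end or listed start and open circles for those without. The grey band holds the middle 50% of all protein-coding genes of that length and the line is their mean. Syt13 (9 regions in 40.95 kb) and Syt7 (7 in 64.38 kb) stand above the band and Rims1 (0 in 520.2 kb) below it.

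By fold enrichment, strong MafA regions were more frequent among these genes than among all genes, as were multiple regions, with gene length moving with both. A region at or above the 90th percentile was found at 13 of 47 (27.7%): the 12 leading genes above and Rph3al. The background was 6.79%. Ranked by fragments, 7 genes (14.9%) reached that percentile, nearer to the background of 11.3%: Syt2, Syt3, Syt7, Syt13, Rab27a, Snap25 and Unc13b. Only Syt3, Syt13 and Rab27a had the same region there by both measures. By fold enrichment within length classes, 1 of 10 genes under 20 kb had one (10.0%, background 2.63%), 5 of 20 genes of 20 to 100 kb (25.0%, background 7.21%) and 7 of 17 genes over 100 kb (41.2%, background 25.8%). The median percentile over all 128 regions was 50.8, so the regions as a whole were of average strength. At least 5 regions were held by 13 genes (27.7%), against 4.2% of all genes. These counts carry no test, because the list was put together with earlier results of these data known.

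In 15 genes no MafA region was found in both replicates: Syt6, Syt10, Syt11, Syt17, Sytl1, Sytl2, Rab3d, Snap23, Stx1a, Stx4a, Vamp8, Stxbp5, Unc13a, Rims1 and Cplx1. For 10 of them neither MafA list held a peak. Sytl2, Rab3d, Snap23 and Stx4a had a peak in replicate 2 alone, at 4.08, 3.50, 4.52 and 2.75, and Stxbp5 had peaks in both lists that did not overlap. Replicate 2 had more fragments per peak, a difference whose part in these peaks was not tested. The nearest regions just outside the 10 kb limit belonged to Syt11, at 10.90 kb (12.61 and 11.60), and Syt6, at 11.64 kb (7.71 and 11.41). Just inside it lay the strongest region of Vamp3, at 9706 bp (8.61 and 10.01). At the 10 genes without a peak in either list nothing passed the authors' threshold, and weaker binding there was not detectable in these files.

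H3K4me3 at a start or end was present at 13 of these 15 genes, over a wide range of fold enrichment. The share was 87.2% (41 of 47) in the whole list and 58.6% among all protein-coding genes. Among SNAREs and binders, Snap23, the widely expressed relative of SNAP-25, had 20.25 and 21.45, and Stxbp5, tomosyn, an inhibitor of SNARE assembly, had 21.16 and 17.45. Stx4a, a plasma membrane syntaxin, had 16.33 and 15.60. Together with Stx1a, Unc13a and Rab3d these genes bore a mark above the median of all H3K4me3 regions (14.87). Lower values were found at Vamp8, a vesicle SNARE of endosomes and secretory granules, with 11.88 and 10.30, and at Cplx1, a complexin, with 6.285 and 7.359. Among the synaptotagmins, Syt17 had 13.78 and 11.40, Syt11, which lacks calcium binding, 9.91 and 7.48, Syt10 5.60 and 5.37, and Syt6 4.51 and 3.49.

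For each of the 41 marked genes, the strongest H3K4me3 region at a listed start, or else at an end, was taken. Its mean fold enrichment ran from 4.002 (Syt6) to 31.27 (Vamp3), with a median of 17.6 and a median width of 2106 bp. The median of all H3K4me3 regions was 14.87. These include regions away from gene ends and weaker regions of the same gene, so the medians are not like for like. The genes with the lowest values were Syt6, Exph5, Syt10, Cadps2, Cplx1, Syt12 and Rims1. At the other end stood Vamp3, Syt13, Cadps (33.95 and 25.91), Rims2, Rab3d, Stx3, Syt9, Vamp2 (26.92 and 24.53) and Snap25 (25.80 and 25.18). Both sets included genes with and without MafA: Rab3d, at 24.48 and 28.99, had no MafA region, and Exph5, at 4.35 and 4.99, held 3.

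MafA regions over H3K4me3 were found at 18 of the 47 genes (38.3%), against 28.7% of all genes. The count was 7 with equal numbers of the strongest peaks from each library. It was 29 with 50 kb either side, and no share of all genes is given for either setting. In the main setting, MafA regions over H3K4me3 made up 30 of the 128 regions (23.4%, against 23.5% of all MafA regions). They had a lower fold enrichment than the regions elsewhere, the median being 4.25 on the mark and 6.26 off it in replicate 1. In replicate 2 these medians were 4.298 and 6.427. They nevertheless held more fragments, with medians of 51 against 25 and 117.5 against 54.5. The modelled background differed most, at 13.34 against 3.03 and 22 against 4.99. The order of MafA sites on and off promoters therefore depends on whether fold enrichment or fragments are ranked. The strongest region by fold enrichment lay off H3K4me3 in 26 of the 32 genes with a region. The other 6 were Syt4, Syt5, Rab3a, Vamp2, Unc13b and Exph5. Ranked by fragments, the strongest region lay over H3K4me3 in 13 genes: those 6 with Syt1, Syt2, Syt3, Syt7, Syt14, Snap25 and Cplx2. No share of all genes is given for either count, so neither sets these genes apart. Most MafA regions of the genome lay off the mark too.

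**Figure D4:**
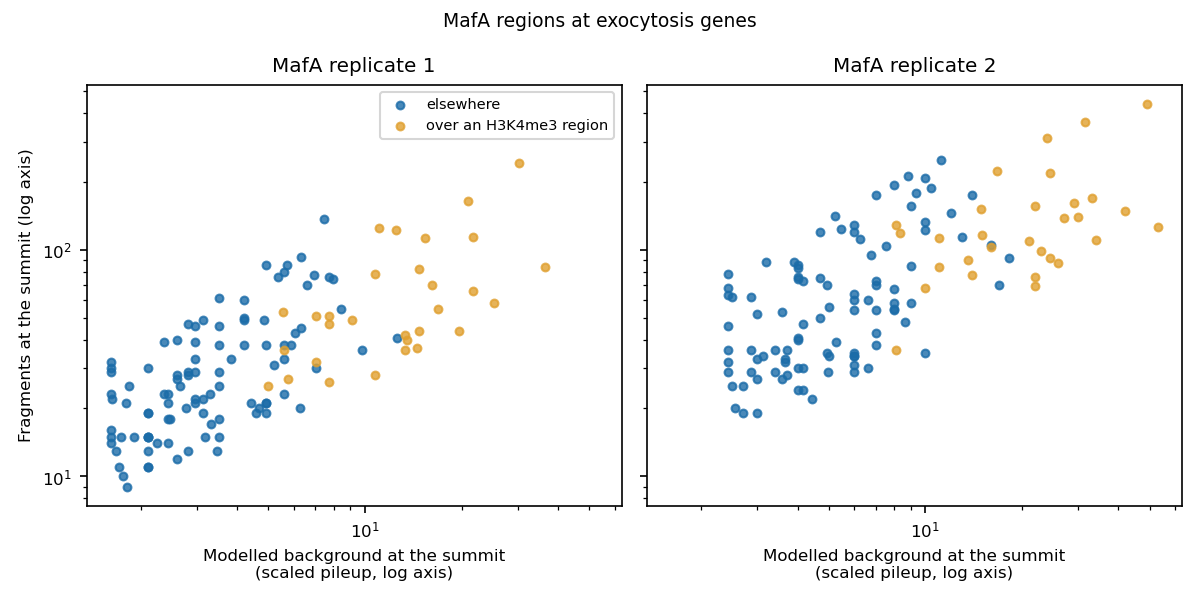
Fragments at the summit against the modelled background there (both log axes) for the 128 MafA regions at exocytosis genes, 1 point each, by replicate. Regions over H3K4me3 (orange) lie to the right of most others (blue): their median background was 13.34 in replicate 1 and 22 in replicate 2, that of the others 3.03 and 4.99.

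Across libraries, MafA peaks at these genes were narrower and lay farther from starts than H3K4me3 peaks. The median peak width was 494 and 734 bp in the MafA libraries (614 ± 170 bp, SD, n = 2) and 1692 and 1635 bp in the H3K4me3 libraries (1664 ± 41 bp, SD, n = 2). The share of summits within 1 kb of a listed start was 7.56% (9 of 119, 95% Wilson interval 4.03 to 13.8%) and 11.5% (15 of 131, 7.06 to 18%) for MafA. For H3K4me3 it was 52.6% (30 of 57, 39.9 to 65%) and 50.8% (30 of 59, 38.4 to 63.2%). The groups did not overlap in either measure. Neither measure is given for the MafA peaks of all genes, so the contrast is not shown to be particular to this list. The differences, MafA minus H3K4me3, were -1050 bp and -42.2 percentage points, each with p = 0.333 in the two-sided exact permutation test (0.333 after Benjamini-Hochberg adjustment over the 2 tests), which is the smallest p that 2 libraries against 2 allow. For the 90 MafA regions at genes with a listed start, the median distance to the nearest listed start was 56.77 kb, and 30 lay over 100 kb away. A listed start can lie inside the gene, as at Sytl5 and Rph3al.

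A wider list of 53 other exocytosis genes, among them exocyst subunits, NSF and its attachment proteins, and active zone scaffolds, was counted the same way. MafA regions were found at 38 (71.7%, against 44.0% of all genes) and H3K4me3 at an end of 43 (81.1%, against 55.8%). These genes too are longer than most, with a median of 42.9 kb against 17.17 kb. The highest values were at Rab3il1, an exchange factor for Rab proteins, at 24.18 and 27.40, and the exocyst subunits Exoc5, at 20.64 and 24.22, and Exoc2, at 15.29 and 18.78. The first 2 of these exceeded the strongest region of every one of the 47 genes in both replicates.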

How the data were processed

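Each of the 4 deposited narrowPeak lists was called by the authors on 1 library; MACS2 and the builds GRCm38 and mm10 are named, with no role or version, per the submitters' processing notes. The aligner, the control library and the threshold are not given in the sources used here (the lowest deposited −log10 q was 2). Each list gives, per peak, the authors' fold enrichment (a ratio, linear), a score, and the −log10 of p and q. Fold enrichment and −log10 p together gave back the fragments and background at each summit: every peak was solved within 0.05 of a whole fragment, and on simulated peaks 99.88 to 99.99% came out right over the 4 libraries. Total depth per library is unknown from these files. Intervals cover counting error only.

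Genes came from RefSeq, assembly GRCm38.p6. As a check of the build, 61.9% and 59.2% of H3K4me3 summits lay within 1 kb of a listed start, against 4.27 to 4.66% after moving them by 20 or 50 kb. Exons were not used here. Tables were handled with pandas 2.3.3 and numpy 2.4.6, tests run with scipy 1.17.1 and plots drawn with matplotlib 3.10.9, under Python 3.11.15.

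The members and lists were chosen with earlier results of these data known. Given with values were the 12 genes of highest mean MafA fold enrichment, 12 core genes of insulin granule fusion, genes without a region or with one in 1 replicate, and the top 3 of a wider list. Other genes named beside these, and the promoters shown, were chosen after their values were seen. Start-based values cover the 34 genes with a listed start. Motifs under summits were not analysed here, since that needs genome sequence. The alternatives tried were other thresholds, overlaps, flanks and start windows, equal list lengths, the nearest gene only, leaving out each library, and the replicate block.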

Additional observations from a re-analysis of the deposited data

How the results depend on the processing

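The count of exocytosis genes with a MafA region (32) ranged from 24, with equal numbers (16020) of the strongest peaks per library, to 45, with 50 kb either side. It was 37 without MafA replicate 1 and 33 without MafA replicate 2. No share of all genes is given under these settings, for this count or the H3K4me3 counts below. Whether the difference from all genes holds there was not tested. Equal numbers took away Syt4, Syt5, Syt12, Syt14, Sytl3, Rab3a, Rab27b and Stx3. The count with MafA over H3K4me3 (18) moved to 7 with equal numbers and to 29 with 50 kb either side; leaving out 1 library gave 18 to 26. H3K4me3 counts moved least, to 41 to 45 in the window and 28 to 29 at a listed start, or 39 at either end of all 47 genes, an alternative added after the data were seen. Of 86 strongest-region values kept under the threshold, equal-number and overlap settings, those of Syt14 (4.91 to 2.42 at −log10 q of at least 5) and Rab3a (4.41 to 2.37 at 50% overlap) moved by over 1.5 times. The median percentile of the strongest region (85.1) was 79.6 with equal numbers, 89.0 without MafA replicate 1 and 76.9 by fragments. In the main setting it was 56.7 over all genes with a region. A maximum rises with the number of regions. The median number was 2 per exocytosis gene and 0 per protein-coding gene, genes without a region included. By fragments, an alternative added after the data were seen, the count with a region at or above the 90th percentile went from 13 to 7 and that with the strongest region over H3K4me3 from 6 to 13. The width difference was -734.2 to -1125 bp over the threshold, equal-number and flank settings, and -929.8 to -1170 bp leaving out 1 library. The difference in share near a start was -40.3 to -44.2 points leaving out 1 library, -36.3 at either end (added) and -19.3 with 50 kb either side. With the replicate block the differences stayed at -1050 bp and -42.2 points (exact sign-flip p = 0.5, the smallest possible); no label ties equal replicate numbers to a shared culture or day. The causes of these changes were not tested. Motifs under summits were not run.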
